A study of Bos taurus with 12 samples.

Results

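The proteasome genes of the rumen wall were followed in rumen papillae of Holstein dairy cows before and during a change to a grain-rich diet. The genes were chosen by symbol alone: every probe set of the array that names 1 gene, with a symbol of the form PSMA to PSMG followed by a number, was taken, and a gene with several of them was read from the one that varied most across the arrays. This gave 46 probe sets for 40 genes, among the 9155 genes named on the array. 1 of the 40, PSME3IP1, encodes a partner of the activator PSME3 and no proteasome subunit, so it is not counted, which left 39 genes. Of these, 34 belong to the standard proteasome, its assembly and its regulators, and 5 (PSMB8, PSMB9, PSMB10, PSME1 and PSME2) belong to the immunoproteasome and its activator and are described apart. By role, the 34 were 6 alpha and 7 beta subunits of the 20S core, 6 ATPases and 7 other subunits of the 19S cap, 6 assembly chaperones, and 2 further regulators. PSMA2, PSMA8, PSMD3, PSMD7, PSMD8, PSMD12, PSMG4 and PSME3 were not analysed here.

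The proteasome is the main protease for proteins tagged with ubiquitin. Its barrel-shaped 20S core is built of outer rings of alpha subunits, which gate the entrance, and inner rings of beta subunits, of which PSMB5, PSMB6 and PSMB7 carry the cutting sites. The 19S cap binds tagged proteins, removes the ubiquitin and threads the chain into the core with a ring of ATPases. Under interferon, cells replace the cutting subunits with PSMB8, PSMB9 and PSMB10 and make the PA28 activator, PSME1 with PSME2, which favours peptides for display on MHC class I molecules. The rumen papillae carry a stratified squamous epithelium that absorbs the short-chain fatty acids of fermentation over a core of connective tissue with vessels and immune cells.

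4 cows were each sampled on 3 occasions from the papillae of the ventral sac: at week 0 on a high forage diet, which served as the control, then 1 and 3 weeks into a grain challenge. This gave 12 Affymetrix arrays, 4 per week, with the same 4 animals in every group. The comparisons of week 1 with week 0 and of week 3 with week 1 share the week 1 arrays with opposite sign. Opposite directions in these comparisons are therefore not separate observations. Diet and calendar week coincided, and no cow kept on forage throughout was among the samples, so the feed and the passing of time cannot be told apart. The values are log2 expression values that were centred on the median of each probe set over all 12 arrays: they show how an array differs from the others, and give neither a level nor an order of abundance between genes. For the same reason the tissue could not be checked by the presence or absence of its marker genes. The replicates are separate animals, and the number of arrays limits the precision.

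3 arrays stood apart by their spiked hybridization controls, a set of 18 probe sets whose mean was 0.49 in cow 1 at week 0, 0.48 in cow 1 at week 1 and 0.72 in cow 2 at week 0, against -0.32 to 0.05 on the remaining arrays. Leaving these arrays out leaves only cows 3 and 4 at week 0 and cows 2, 3 and 4 at week 1, so a comparison of weekly means without the cow as a block then sets different animals against each other. No probe set of the 24016 tested was called at an adjusted p under 0.05 in any of the 3 comparisons between weeks, by limma without a term for the cow. With the cow as a block, 2 were called between weeks 1 and 0 (0.00833%) and 0 in the other comparisons.

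None of the 39 proteasome genes was called in any comparison, by limma with or without the cow as a block, beside the 0% and 0.00833% of all probe sets just given. The lowest adjusted p of limma among them was 0.763 for week 1 against week 0, 0.901 for week 3 against week 0 and 0.999 for week 3 against week 1. At an unadjusted p under 0.05, 0 genes were higher and 1, PSMF1, was lower at week 1 than at week 0, where 3.76% and 2.85% of all genes were higher and lower. For week 3 against week 0 these counts were 0 and 1, again PSMF1, beside 3.13% and 1.89% of all genes, and at week 3 against week 1 they were 0 and 0, beside 3.68% and 3.16%. These counts of 0 or 1 in 39 are of the size of the background shares. After quantile normalization the gene lower at week 1 at this threshold was PSMG3 (-0.08, SE 0.03), in place of PSMF1, where 2.51% of all probe sets were lower.

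Most of the 34 standard genes lay close to 0, as did most genes of the array. Their median log2 difference was -0.02 at week 1 and -0.02 at week 3 against week 0, and 0.01 at week 3 against week 1, where the medians of all 9155 genes were 0.02, 0.02 and -0.01. At week 1 against week 0 they ranged from -0.27 to 0.25, and 30 of the 34 lay within 0.2 of 0. In the other comparisons 31 and 33 of the 34 did. Of all 9155 genes, 7414 lay within 0.2 of 0 at week 1 against week 0, and 7606 and 7410 in the other comparisons. The 5 immunoproteasome genes had medians of -0.50, -0.16 and 0.32 in the same order, and all 5 were lower at week 1 than at week 0. That count was also 5 of 5 after quantile normalization or centring of the arrays, and without the 3 arrays it was 3 of 5, or 4 of 5 with the cow as a block, which compares weeks within animals.

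**Figure D1:**
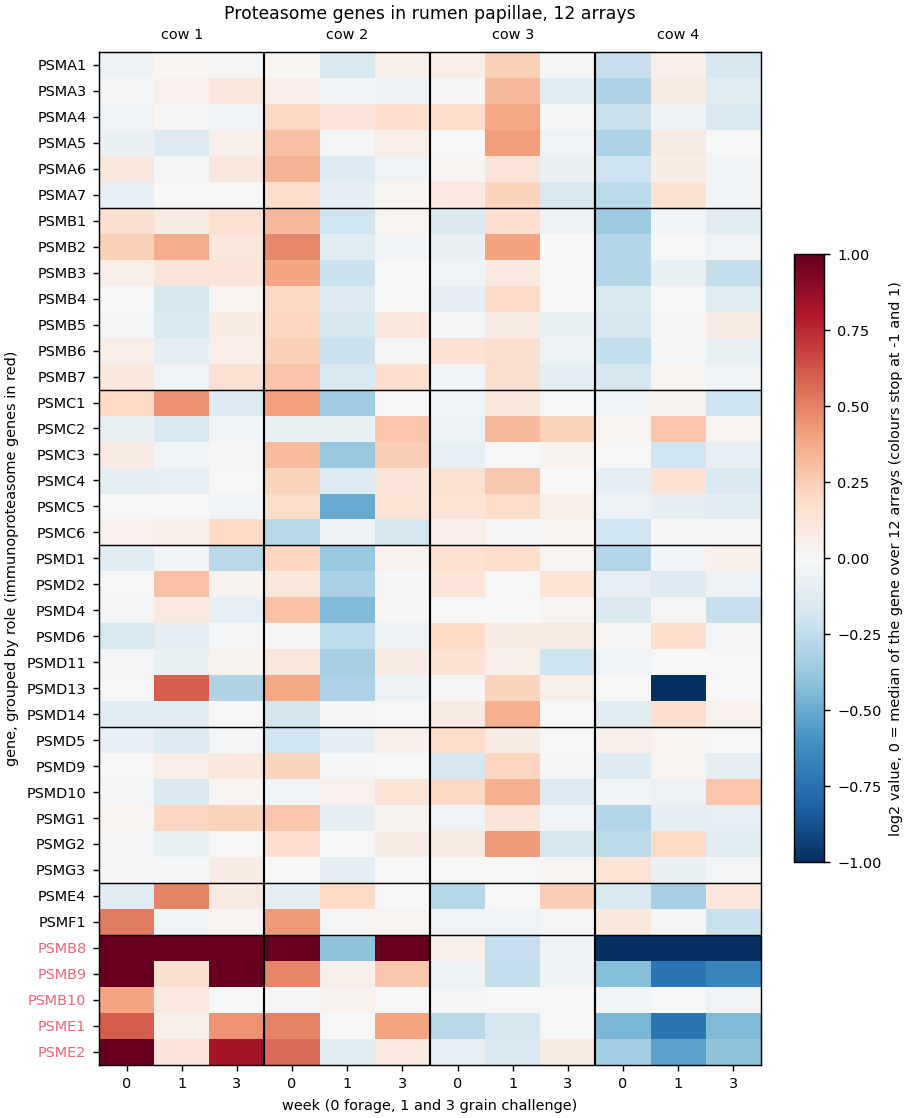
Centred log2 value of the 39 proteasome genes (rows, by role) on the 12 arrays (columns, by week and cow). The colour scale is cut at its ends, so PSMB8, which ranged over 5.55 log2 units, is shown at the end colour on several arrays. The standard genes show little contrast between weeks, and the immunoproteasome genes PSMB8, PSMB9, PSME1 and PSME2 run from high in cow 1 to low in cow 4.

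Of the 6 alpha subunits of the core, 5 were higher at week 1 than at week 0 and all 6 were lower at week 3 than at week 1, by 0.02 to 0.15, and none passed the test. Of all 9155 genes, 5798 were higher at week 1 and 5417 lower at week 3 against week 1. Both counts of the alpha subunits were the same under quantile normalization and centring of the arrays, and with the 3 arrays that stood apart left out they were 6 higher of 6 and 6 lower of 6. Over all alternatives, PSMA4, PSMA5 and PSMA7 reached down to -0.0075, -0.0047 and -0.018 at week 1 against week 0. At week 3 against week 1, PSMA5 and PSMA6 reached up to 0.06 and 0.04, so neither count held throughout. PSMA3 had the largest difference. Its values in cows 1 to 4 were -0.01, 0.07, 0.01 and -0.31 at week 0, 0.04, -0.02, 0.33 and 0.09 at week 1, and 0.11, -0.05, -0.12 and -0.12 at week 3. The weeks overlapped, and the difference at week 1 (0.17, SE 0.10, limma adjusted p = 0.763) was carried by cows 3 and 4, where it was 0.31 and 0.40, while it was 0.05 in cow 1 and -0.09 in cow 2. PSMA5 was at 0.11 and PSMA6, the exception, at -0.05 in the same comparison. At week 3 the differences of the 6 genes from week 0 lay between -0.07 and 0.04, with 3 higher and 3 lower, or 1 and 5 under either scaling. With the 3 arrays left out all 6 were higher than week 0, and 5 of 6 with the block as well. PSMA4, another member of the alpha ring, had the largest share of its variance between cows among the standard genes, 70.0%.

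The 7 standard beta subunits lay close to 0, between -0.09 and 0.07 at week 1 against week 0, with 2 higher and 5 lower, or 1 and 6 with the arrays centred. Without the 3 arrays all 7 were higher than at week 0, with a median of 0.11 at week 1 and 0.15 at week 3, so the directions below turned for PSMB5, PSMB6 and PSMB7 at week 1. PSMB5, the chymotrypsin-like site, was at -0.06 (SE 0.09) at week 1 and 0.05 at week 3 against week 0. PSMB6, the caspase-like site, was at -0.09 (SE 0.10) and -0.07, and PSMB7, the trypsin-like site, at -0.05 (SE 0.10) and 0.0023. Each of these differences was smaller than its standard error. PSMB2, a structural beta subunit, was the highest of them at week 1 (0.07) and the lowest at week 3 against week 1 (-0.15, SE 0.17). PSMB1 had the smallest share of variance between weeks of all 39 genes, 0.0996%.

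Among the 6 ATPases, which form the unfolding ring of the cap, 3 were higher and 3 lower at week 1 than at week 0, or 2 and 4 with the arrays centred. PSMC3 was lowest. Its values in cows 1 to 4 were 0.09, 0.32, -0.08 and -0.01 at week 0, -0.03, -0.38, 0.01 and -0.20 at week 1, and 0.01, 0.25, 0.03 and -0.08 at week 3. The difference at week 1 was -0.23 (SE 0.11, limma adjusted p = 0.763), and in cow 2 it was -0.69. At week 3 PSMC3 was 0.20 above week 1, higher in 4 of 4 cows, and -0.02 from week 0, or 0.10 without the 3 arrays. PSMC2 was higher than at week 0 by 0.14 at week 1 and by 0.17 at week 3 (SE 0.11, limma adjusted p = 0.901). It was higher at week 3 in 4 of 4 cows, and of the other proteasome genes only PSME4 was, where 28.1% of all genes were. PSMC1 was at -0.22 at week 3 against week 0 (SE 0.16), its largest difference. 2 of its week 0 values, 0.20 in cow 1 and 0.41 in cow 2, came from arrays with high hybridization controls, and it was at -0.05 with the 3 arrays left out and at 0.02 with the block as well. PSMC5, which the array measures by 2 probe sets, was at -0.17 at week 1 and at -0.05 at week 3 against week 0, and its other probe set was at 0.02 in both, so its direction depended on the probe set. It was lower at week 3 than at week 0 in 4 of 4 cows, as was the immunoproteasome gene PSMB9, where 6.34% of all genes were. The probe sets of PSMD6 and of PSMC6 also had opposite signs in 1 comparison each, with differences of at most 0.02.

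Of the 7 other cap subunits, 6 were lower and 1 higher at week 1 than at week 0. The exception was PSMD14, the deubiquitinase that cuts ubiquitin chains from a substrate as it enters. Its values in cows 1 to 4 were -0.11, -0.19, 0.08 and -0.11 at week 0, -0.11, 0.01, 0.36 and 0.17 at week 1, and -0.0029, -0.0078, 0.0029 and 0.04 at week 3. It was 0.19 above week 0 at week 1 (SE 0.09, limma adjusted p = 0.763), with 3 of 4 cows higher and cow 1 at -0.0080. With the cow as a block in limma it was the 1 proteasome gene higher at week 1 at an unadjusted p under 0.05, where 5.25% of all genes were. PSMD13, a scaffold subunit of the lid, varied most among the standard genes (SD 0.44). It reached 0.59 in cow 1 and -1.19 in cow 4 at week 1, so its difference of -0.27 from week 0 (SE 0.31) was smaller than its error. PSMD11, also of the lid, had the smallest share of variance between cows of all 39 genes, 1.55%. The ubiquitin receptor PSMD4 was at -0.11 (SE 0.13), and the large scaffold subunits PSMD1 and PSMD2 were at -0.05 and -0.08.

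The 6 assembly chaperones were within 0.15 of week 0 at week 1 and within 0.05 at week 3, and with the 3 arrays left out between -0.12 and 0.30 at week 1 and between -0.11 and 0.20 at week 3. PSMG2, which pairs with PSMG1 to build the alpha ring, was highest at week 1 (0.15, SE 0.12) and was at -0.19 from week 1 at week 3 (limma adjusted p = 0.999), with cow 3 at 0.43 at week 1 and -0.18 at week 3. PSMG3, which also acts on the alpha ring, was lowest at week 1 (-0.07, SE 0.04) and higher at week 3 than at week 1 in 4 of 4 cows by a mean of 0.06. PSMD10, a chaperone of the cap, was at 0.02 and 0.05 against week 0.

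The regulators PSME4 and PSMF1 had the largest differences of the standard genes at week 3. PSMF1 (PI31, described both as an inhibitor of the core and as an adaptor for its transport) had 0.52, 0.43, -0.04 and 0.11 in cows 1 to 4 at week 0, -0.04, 0.01, -0.03 and -0.01 at week 1, and 0.03, 0.03, -0.02 and -0.22 at week 3. Its high values were those of cows 1 and 2 at week 0, and the weeks overlapped through cow 3. It was at -0.27 (SE 0.11, limma adjusted p = 0.763) at week 1 and -0.30 (limma adjusted p = 0.901) at week 3, and 46.2% of its variance lay between weeks, the largest share of the 39 genes. Both high values came from arrays with high hybridization controls. Without the 3 such arrays the differences were -0.04 and -0.08, and neither had an unadjusted p under 0.05 in limma. PSME4 (PA200, an activator of the core linked to histone degradation) had -0.11, -0.09, -0.29 and -0.15 at week 0, 0.50, 0.20, -0.0010 and -0.33 at week 1, and 0.09, 0.0010, 0.25 and 0.10 at week 3. All week 3 values lay above all week 0 values, with a difference of 0.27 (SE 0.14, limma adjusted p = 0.901). PSME4 was the 1 proteasome gene of 39 with weeks that did not overlap in this direction, where 2.95% of all genes did not. No proteasome gene was without overlap and lower at week 3 than at week 0, where 1.1% of all genes were. The count was also 0 for week 1 against week 0, beside 2.21% of all genes higher and 0.907% lower, and for week 3 against week 1, beside 1.55% higher and 1.69% lower.

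**Figure D2:**
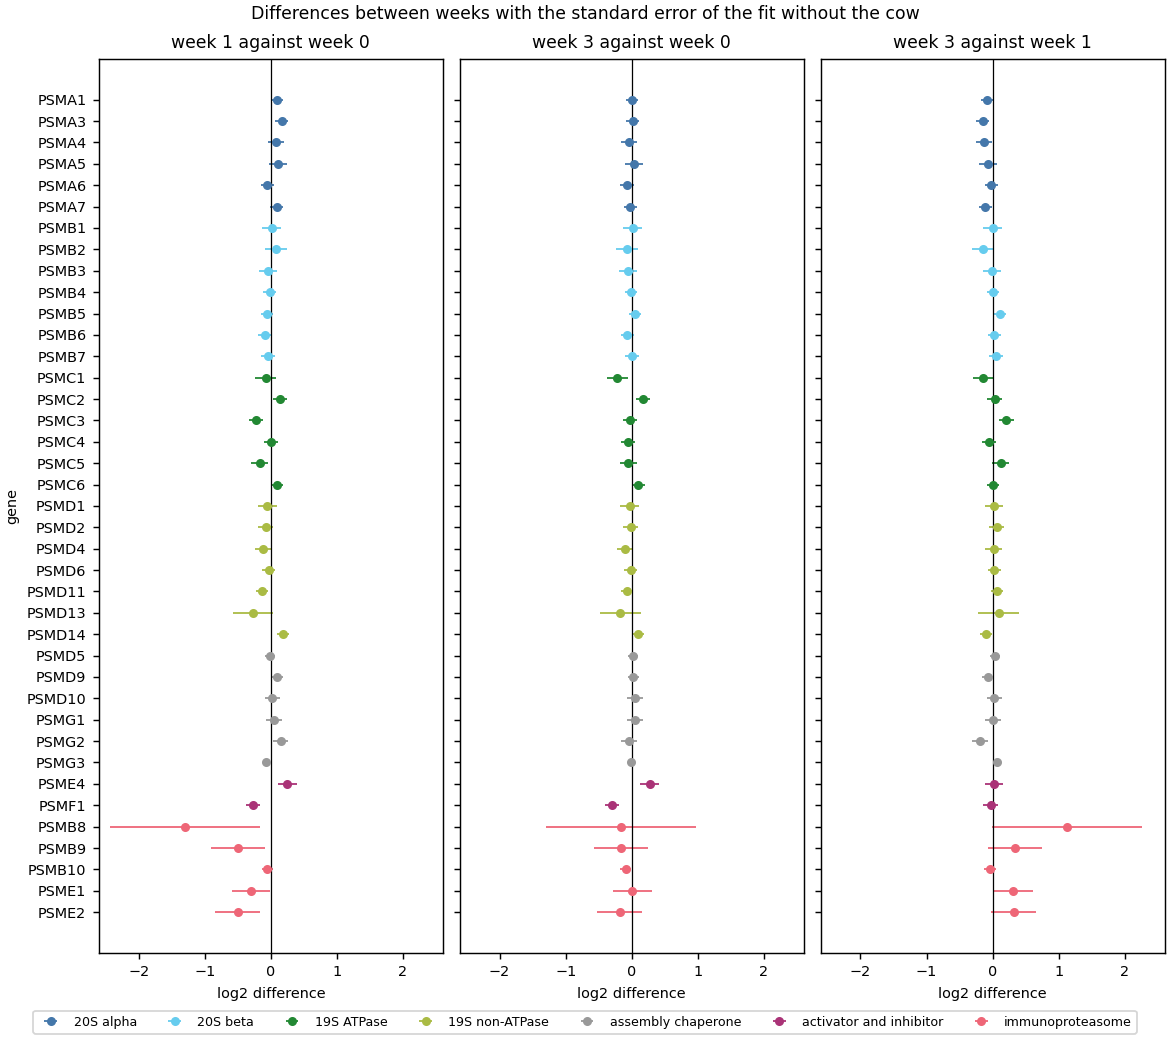
Log2 difference of each of the 39 proteasome genes (rows, coloured by role) in the 3 comparisons between weeks, with the standard error of limma fitted without the cow, n = 4 arrays per week. Most standard genes lie within 0.2 of 0 with bars that cross or approach it, and PSMB8 at week 1 (-1.29) has the largest difference and the widest bar (SE 1.13).

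The immunoproteasome genes followed another pattern: the cows differed widely, and within a cow week 1 was mostly the lowest point. PSMB8, which replaces PSMB5, had 2.42, 1.72, 0.05 and -1.65 in cows 1 to 4 at week 0, 1.13, -0.41, -0.23 and -3.12 at week 1, and 1.96, 1.45, -0.05 and -1.47 at week 3. The cows kept a wide spread at every week, with means of 0.64 ± 1.82 (SD, n = 4), -0.66 ± 1.78 and 0.47 ± 1.55, so the weeks overlapped throughout. Its range of 5.55 over the arrays is 46.7-fold, and its SD of 1.67 was at the 99.8th percentile of all genes. Of its variance 83.0% lay between cows and 12.9% between weeks. At week 1 it was below week 0 in 4 of 4 cows, with differences of -1.29, -2.13, -0.28 and -1.47 in cows 1 to 4. The mean difference of -1.29 had an SE of 1.13 without the cow in limma (adjusted p = 0.763) and of 0.29 with it (adjusted p = 0.309, range 0.0653 to 1 over all alternatives). At week 3 it was 1.13 above week 1, again in 4 of 4 cows, and -0.17 from week 0.

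PSMB9, which replaces PSMB6, had 1.21, 0.49, -0.05 and -0.42 in cows 1 to 4 at week 0, 0.16, 0.05, -0.24 and -0.73 at week 1, and 1.04, 0.27, -0.05 and -0.66 at week 3. It kept the same order of cows at every week, from cow 1 highest to cow 4 lowest. The PA28 subunit PSME2 had 1.19, 0.57, -0.08 and -0.34 at week 0, 0.12, -0.11, -0.15 and -0.53 at week 1, and 0.82, 0.10, 0.08 and -0.40 at week 3. Its partner PSME1 had 0.60, 0.50, -0.28 and -0.46 at week 0, 0.05, 0.0023, -0.17 and -0.73 at week 1, and 0.45, 0.39, -0.0023 and -0.44 at week 3. PSMB9 and PSME2 were lower at week 1 in 4 of 4 cows and PSME1 in 3 of 4, with mean differences of -0.50, -0.50 and -0.30 and unblocked SEs of 0.41, 0.34 and 0.29. PSMB8, PSMB9 and PSME2 were the 3 proteasome genes lower in every cow at week 1 against week 0, where 5.29% of all genes were, and 0 were higher in every cow, where 7.48% were. From week 1 to week 3, PSMB8, PSMB9, PSME1, PSME2, PSMC3 and PSMG3 were higher in every cow, where 7.35% of all genes were, and 0 were lower, where 5.68% were. In each of these genes the weeks overlapped. At week 3, PSMB9 was at -0.16, PSME2 at -0.18 and PSME1 at 0.0090 relative to week 0, and PSME1 was below 0 under either scaling (-0.01 and -0.0072). With the 3 arrays of high hybridization controls left out, all 5 immunoproteasome genes were higher at week 3 than in the cows left at week 0 (median 0.38), and with the block as well 4 of 5 were (median 0.06), with PSMB9 at -0.11.

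PSMB10, which replaces PSMB7, did not share this. It had 0.40 in cow 1 at week 0 and 0.10 in cow 1 at week 1, and lay between -0.03 and 0.04 on the other 10 arrays. Its difference was -0.05 (SE 0.08) at week 1 and -0.09 at week 3 against week 0, and its SD was 0.12, under the median of 0.159 over all genes. On centred values a narrow spread can be that of a steady transcript or of a probe set near background, and these cannot be told apart here.

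**Figure D3:**
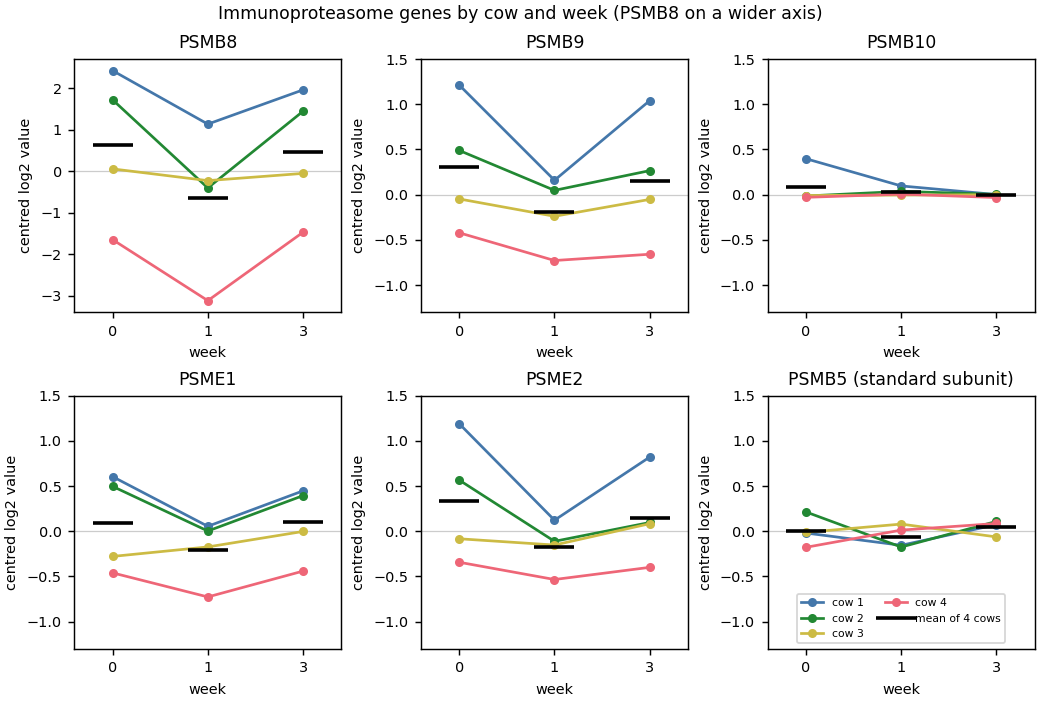
Centred log2 value (vertical axis, PSMB8 on a wider axis) at weeks 0, 1 and 3 for each of the 4 cows (coloured lines) and their mean (black bars), for the 5 immunoproteasome genes and PSMB5. PSMB8, PSMB9 and PSME2 are lower at week 1 than at week 0 in all 4 cows, in PSMB8, PSMB9, PSME1 and PSME2 the cows lie further apart than the weeks, PSMB10 reaches 0.40 in cow 1 at week 0, and PSMB5 lies between -0.18 and 0.21.

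With the cow as a block, 5 proteasome genes were lower at week 1 than at week 0 at an unadjusted p under 0.05, where 4.99% of all genes were: PSMB8, PSMB9, PSME2, PSME1 and PSMF1. The blocked SEs of the first 4 were 0.29, 0.14, 0.16 and 0.10. Between weeks 1 and 3 the same threshold gave 3 higher, PSMB8, PSME1 and PSMB9, and 0 lower, where 6.39% and 4.21% of all genes were. Between weeks 0 and 3 it gave 0 higher and 1 lower, PSMF1, where 5.07% and 2.95% of all genes were. The adjusted p of these genes in limma with the block was 0.309 or above. The count of genes lower at week 1 changed with the arrays of high hybridization controls, which held 2 of the 4 values of week 0. Without these 3 arrays and with the block, PSMB8 was at -1.03, PSMB9 at -0.26, PSME2 at -0.13 and PSME1 at -0.11, and of the 5 immunoproteasome genes only PSMB9 had an unadjusted p under 0.05 at week 1 in limma, in place of 4. Between weeks 1 and 3, a comparison that holds only the week 1 array of cow 1 among them, 4 of the 5 were higher at that threshold in place of 3. Leaving out cows 1, 2, 3 and 4 in turn, 2, 2, 4 and 3 of the 5 were lower at week 1 at this threshold and 3, 1, 2 and 2 were higher at week 3 against week 1. Without the block and without the 3 arrays, PSMB8 was at -0.45 at week 1 and 1.27 at week 3 against week 0, and at 1.72 at week 3 against week 1, so the direction of week 3 against week 0 turned. Week 0 then held only cows 3 and 4, and with the block, which compares within cows, PSMB8 without these arrays was at 0.19 at week 3 against week 0 and at 1.23 against week 1.

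Each immunoproteasome subunit was also set against the standard subunit it replaces, as the difference of the centred values on each array. PSMB8 minus PSMB5 averaged 0.64 ± 1.71 (SD, n = 4) at week 0, -0.60 ± 1.85 at week 1 and 0.42 ± 1.54 at week 3. It was lower at week 1 than at week 0 by -1.23, in 4 of 4 cows (-1.74 to -0.37), and higher at week 3 than at week 1 by 1.01, in 4 of 4 cows. At week 3 against week 0 it was at -0.22, also lower in 4 of 4 cows (-0.56 to -0.06). The two-sided exact permutation test over arrays gave p = 0.371 for week 1 against week 0. After adjustment over the 9 tests of this kind it was 0.814. The sign-flip test over cows gave 0.125 in each of the 3 comparisons, the smallest it can give with 4 cows. PSMB9 minus PSMB6 was at -0.41 at week 1 (3 of 4 cows lower) and 0.31 at week 3 against week 1, and PSMB10 minus PSMB7 was at -0.0062 and -0.09. At week 3 against week 0 these pairs were at -0.09 and -0.10, each lower in 2 of 4 cows. No adjusted p of the exact permutation tests was under 0.814, and the smallest p they allow before adjustment is 0.0286. These tests shuffle arrays between weeks without keeping the cow, so the wide spread between cows enters them and they do not test the change within cows. For PSMB8 minus PSMB5 the within-cow difference of week 1 from week 0 had an SD of 0.63.

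Genes that act with the immunoproteasome in MHC class I antigen processing were read from a list of 14, of which 10 were measured. At week 1 against week 0, 8 of the 10 were lower, with a median of -0.23, and at week 3 against week 1, 9 of the 10 were higher, with a median of 0.13. In the latter comparison 0 of the 10 were higher at an unadjusted p under 0.05 in limma, where 3.68% of all genes were. With the cow as a block 3 were, where 6.39% of all genes were. At an unadjusted p under 0.05 in limma, 1 was lower at week 1, PDIA3, an endoplasmic reticulum chaperone of the peptide-loading complex (-0.20, SE 0.09), and with the block 4 were, where 2.85% and 4.99% of all genes were. TAP1, a subunit of the peptide transporter, had 1.08, 0.34, 0.18 and -0.70 in cows 1 to 4 at week 0, 0.76, -1.06, -0.85 and -1.97 at week 1, and 0.83, 0.12, -0.12 and -0.87 at week 3. It was lower at week 1 in 4 of 4 cows, with differences of -0.33, -1.39, -1.03 and -1.26 in cows 1 to 4. B2M, the light chain of MHC class I, was at -0.47, also lower in 4 of 4 cows. TAP1, B2M and TAP2 were the 3 of the 10 lower in every cow, where 5.29% of all genes were. Neither had an adjusted p under 0.05 in limma, with or without the cow as a block. TAP2, the partner of TAP1, split the animals: cows 1 and 2 stood at 1.05 to 1.37 and cows 3 and 4 at -2.08 to -1.05 on all their arrays, so 97.5% of its variance lay between cows. In the ARS-UCD2.0 gene table, TAP1 neighbours both PSMB8 and PSMB9 with 0 protein-coding genes between, PSMB8 and TAP2 have 1 between them, and PSME1 and PSME2 have 1 between them.

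Immune cells express immunoproteasome genes strongly, and in whole papillae fewer cells of a type and less RNA per cell cannot be told apart. Of a list of 9 markers of macrophages, monocytes and dendritic cells 7 were measured. Between weeks 0 and 1, 4 were lower and 3 higher, with a median of -0.14 and 0 in either direction at an unadjusted p under 0.05 in limma. With the cow as a block 1 was lower at that threshold, CSF1R (-0.38, lower in 4 of 4 cows), where 4.99% of all genes were. At week 3 against week 1, 5 were higher, with a median of 0.34, among them CD14 at 1.43 and CSF1R at 0.67, both with an unadjusted p under 0.05, where 3.68% of all genes were higher. With the block 3 were, AIF1 at 0.81 being the third, where 6.39% of all genes were. The sum of the 7 centred values over an array ran from -3.52 to 3.35 at week 0, from -2.77 to 0.81 at week 1 and from -1.13 to 3.61 at week 3. Of 12 markers of T, NK and B cells 11 were measured, and 9 were higher and 2 lower at week 1 against week 0, with CD3G at 1.63, CD3D at 1.12 and CD3E at -0.46 (lower in 3 of 4 cows). The others lay between -0.12 and 0.05. CD3G and CD3D were higher in 4 of 4 cows, where 7.48% of all genes were, and CD2 was lower in 4 of 4, where 5.29% were. CD3G and CD3D also had an unadjusted p under 0.05 in limma, with and without the block. Of all genes 3.76% were higher at that threshold without the block and 5.25% with it. The sum of the 11 values over an array ran from -3.20 to 1.27 at week 0, -0.73 to 3.62 at week 1 and -0.73 to 2.46 at week 3. In the wall itself, 6 of 8 basal epithelial markers were measured and all 6 were lower at week 1, with a median difference of -0.32 from week 0 and sums of 0.54 to 2.45 at week 0, -2.04 to 1.68 at week 1 and -1.83 to 0.29 at week 3. At week 1, 3 of the 6 were lower at an unadjusted p under 0.05 in limma, and 5 with the block, where 2.85% and 4.99% of all genes were. In every cow 4 of the 6 were lower, where 5.29% of all genes were. Of 5 measured markers of the differentiated epithelium 3 were lower (median -0.62), of 9 of fibroblasts and matrix 5 were higher (median 0.17), and of 8 of vessels and smooth muscle 4 were lower (median -0.01). At the same threshold 4 fibroblast and matrix markers were higher and 1 lower, with or without the block. For the differentiated epithelium 1 was lower and for vessels and smooth muscle 2 were, also with or without it. Of all genes 3.76% were higher and 2.85% lower without the block. At week 3 against week 1, all 9 fibroblast and matrix markers were higher (median 0.29). Of these, 3 had an unadjusted p under 0.05 in limma, where 3.68% of all genes were higher. In that comparison 2 of 11 markers of T, NK and B cells were higher, and 2 of 6 of the basal epithelium. For the differentiated epithelium 3 of 5 were higher, and for vessels and smooth muscle 2 of 8. Whether a defining marker is at 0 cannot be read from centred values. The part of these cells in the immunoproteasome values was not tested.

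The ubiquitin genes upstream of the proteasome and the factors that control its genes were read from a list of 34, of which 23 were measured. At week 1 against week 0, 16 were higher and 7 lower, with a median of 0.04, and 3 and 1 had an unadjusted p under 0.05 in limma, where 3.76% and 2.85% of all genes did. The 3 were TXNL1, a thioredoxin-like protein bound to the cap, at 0.31 (SE 0.09), NFE2L2, a stress-responsive transcription factor whose targets include proteasome genes, at 0.16 (SE 0.06), and POMP, the maturation protein of the core, at 0.20. The 1 lower was UFD1, which brings tagged proteins to VCP, at -0.33 (SE 0.12). Relative to week 0, NSFL1C, another cofactor of VCP, was at -0.35 at week 3, UFD1 at -0.28 and AKIRIN2, which takes proteasomes into the nucleus, at 0.34. The first pair had an unadjusted p under 0.05, where 1.89% of all genes were lower. Relative to week 1, TXNL1 was at -0.27 at week 3, NFE2L2 at -0.14 and the segregase VCP at 0.19, the first pair again under 0.05, where 3.16% of all genes were lower. The adjusted p of limma was above 0.05 for all of these. With the cow as a block, 4 of the 23 were higher and 2 lower at week 1 against week 0 at an unadjusted p under 0.05. These counts were 1 and 1 at week 3 against week 0, and 0 and 1 at week 3 against week 1. Of all genes 5.25% and 4.99%, 5.07% and 2.95%, and 6.39% and 4.21% were higher and lower in the same order. NFE2L1, the transcription factor that raises proteasome genes when proteasome activity is short, was at 0.04 (SE 0.24) at week 1 and 0.03 at week 3 against week 0.

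The small medians of the standard genes hid opposite directions in single animals. At week 1 against week 0, 17 of the 34 were higher and 17 lower in cow 1, 6 and 28 in cow 2, 29 and 5 in cow 3, and 25 and 9 in cow 4, with medians of 0.0013, -0.37, 0.14 and 0.19. Over all 9155 genes 42.4%, 62.2%, 63.0% and 61.6% were higher in the same animals, so cow 2 was the one in which the proteasome genes and the majority of genes had opposite directions. From week 1 to week 3 the counts were 22 and 12, 30 and 4, 8 and 26, and 9 and 25, which reversed the week 1 direction in cows 2, 3 and 4. Both comparisons use the same week 1 array of a cow, so a deviation of that array alone would give such a reversal. Of the 5 immunoproteasome genes 5, 4, 3 and 4 were lower at week 1 in cows 1 to 4, with medians of -1.05, -0.49, -0.07 and -0.27. PSMB10 was higher in 3 of 4 cows. The medians furthest from 0 were those of cows 1 and 2, whose week 0 arrays had high hybridization controls. The week 1 array of cow 1 had them as well, and the part of these arrays was not tested.

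A few arrays carried these directions. Among the 34 standard genes the highest value of the 12 arrays was that of cow 2 at week 0 in 14 and that of cow 3 at week 1 in 10, and the lowest was that of cow 4 at week 0 in 14 and that of cow 2 at week 1 in 9. Over all genes these arrays were highest in 10.4% and 8.32% and lowest in 9.37% and 10.6%. The array of cow 2 at week 0 also had the highest hybridization controls, and the part of the array in these values was not tested. With cow 2 left out and the block kept, 5 standard genes (PSMA1, PSMB2, PSMB3, PSMG1 and PSMD9) were higher at week 1 than at week 0 at an unadjusted p under 0.05 in limma, with differences of 0.15 to 0.30, where 2.91% of all probe sets were. Their adjusted p was 0.742 or above. Cow 2 was singled out after its mostly lower values at week 1 had been seen. Leaving it out by itself raises these differences, so the count is no separate test of the genes.

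**Figure D4:**
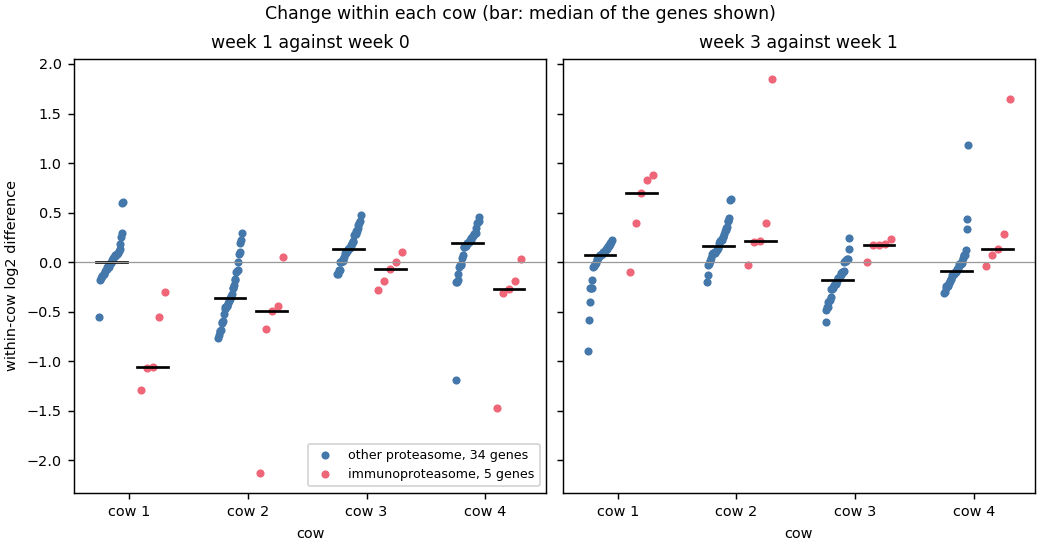
Log2 difference within each of the 4 cows for week 1 against week 0 and week 3 against week 1, with a point for each standard gene (34) and each immunoproteasome gene (5). At week 1 the standard genes lie mostly below 0 in cow 2 (28 of 34) and mostly above it in cows 3 and 4 (29 and 25), and the order turns at week 3 against week 1. Both panels use the same week 1 array of each cow, with opposite sign.

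The gene groups differed in their median share of variance between cows, while single genes overlapped. The shares between cows ran from 1.55% to 70.0% in the standard genes and from 43.0% to 83.0% in the immunoproteasome genes. For the standard genes the median share between cows was 23.9% and between weeks 9.60%, beside medians of 28.6% and 13.4% over all genes and the 27.3% and 18.2% that are the shares of the degrees of freedom. For the immunoproteasome genes the median shares were 79.7% and 12.9%. Their median SD was 0.515, while that of the standard genes was 0.158 and that of all genes 0.159. PSMF1, PSMC3, PSMG3 and PSME4 had the 4 largest shares between weeks among the standard genes, and a moderated F test over the 3 weeks gave an unadjusted p under 0.05 for 1 of the 39, PSMF1 (adjusted p = 0.939 by limma), where 6.90% of all genes had one.

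**Figure D5:**
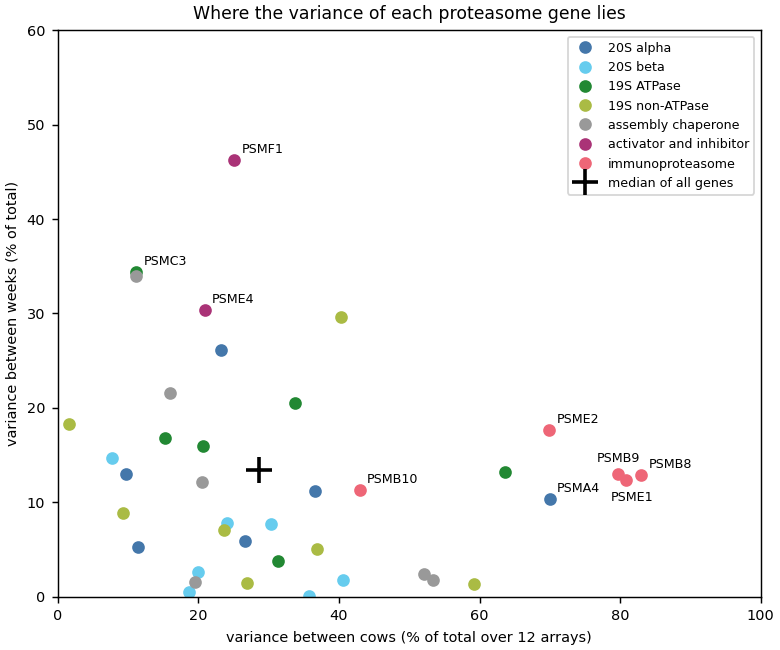
Share of the variance over the 12 arrays that lies between cows (horizontal axis, %) and between weeks (vertical axis, %) for each of the 39 proteasome genes, coloured by role, with the median of all genes as a cross (28.6% and 13.4%). PSMB8, PSMB9, PSME1 and PSME2 lie at 69.9% to 83.0% between cows, and PSMF1 has the highest share between weeks (46.2%).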

How the data were processed

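The deposited log2 values of 12 Affymetrix arrays were used. Biotin-labelled cRNA was made from 10 ug of total RNA, per the labels' protocols, and the authors processed the arrays with GCRMA, per the submitters' processing notes. Its version and the log base are not given in the sources used here. Base 2 was taken: some probe set spans 11.2 units, which with base e would mean 74399-fold and exceed the 65535 levels that a 16-bit scan can hold. Every probe set had a median of 0 over the arrays, so no filter on level was possible.

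Of 24016 probe sets other than 112 AFFX controls, 13292 named 1 gene, 86 several and 10638 none in the platform annotation. limma 3.58.1 (lmFit and eBayes, two-sided, R 4.3.3) was fitted to all of them with a mean per week and no cow term. P-values were adjusted by Benjamini-Hochberg, and adjusted p under 0.05 was called. On simulated data for week 1 against week 0 with 24016 probe sets, it called 90% of 100 changed by 1 and 96% of 100 changed by 2 on the log2 scale, with 17 false calls of 203. The simulated noise was independent between arrays and held no cow or array effects, unlike the data. The differences of the standard genes, between -0.30 and 0.27 in all 3 comparisons, were smaller, and changes of that size were not simulated. Differences between immunoproteasome and standard subunits were tested by exact permutation.

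The same animals were sampled at every week, which pairs the arrays. Deviations from the weekly means correlated at 0.303 to 0.690 within a cow and -0.435 to 0.0662 from cow to cow. Taking off the weekly mean by itself draws the values from cow to cow below 0 where those within a cow are positive. The blocked fit is given beside part of the results it changed. Named are the 5 genes of smallest p per comparison, the extremes of each role, the catalytic, immunoproteasome and PA28 subunits, the extremes of the variance shares, genes whose probe sets disagree in sign, and the 3 of smallest p in the ubiquitin list; other names (POMP, NFE2L1, TAP1, B2M, TAP2, markers and the remaining subunits) were chosen with their values seen. The genes and lists were chosen with earlier results of these data known. Alternatives were the block, quantile normalization, centring of arrays, array weights, the mean of a gene's probe sets, a filter on SD, and leaving out arrays and cows.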

Additional observations from a re-analysis of the deposited data

Results flagged for a closer look

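In 6 of the 117 sets of 4 arrays examined (39 genes at 3 weeks), 1 cow stood apart from the other 3 beyond Dixon's 95% limit, where chance flags about 1 in 20. PSMB10 was at 0.40 in cow 1 at week 0 (others -0.03 to -0.0096) and at -0.032 in cow 4 at week 3 (others -0.00097 to 0.0035). At week 0, PSMD13 was at 0.39 in cow 2 (others -0.0019 to 0.01), PSMD10 at 0.21 in cow 3 (others -0.04 to -0.02) and PSMG3 at 0.13 in cow 4 (others -0.0084 to 0.0036). PSMD1 was at -0.28 in cow 1 at week 3 (others 0.02 to 0.05). No array was flagged in more than 1 of the genes. The values of PSMB10 at week 0 and of PSMD13 came from arrays with high hybridization controls, and the part of these arrays was not tested.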

How the results depend on the processing

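No proteasome gene was called under any alternative but array weights, where 2 were at week 1 against week 0, PSMD13 (-0.82) and PSMD14 (0.25), as were 9970 of all 24016 probe sets. The blocked fits that leave out cows or the 3 arrays were chosen after seeing the data. Counts below are at an unadjusted p under 0.05, each to be read beside the share of all probe sets under the same setting. Leaving out arrays or cows gave 0 to 1 higher and 0 to 2 lower at week 1 against week 0 (median -0.091 to 0.085), 0 to 1 and 0 to 1 at week 3 against week 0 (median -0.10 to 0.03), and 0 to 1 and 0 to 1 at week 3 against week 1 (median -0.04 to 0.05).

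At week 1 against week 0, with 0 higher and 1 lower in the fit without the cow, the replicate block gave 1 and 5, array weights 1 and 5, and the fit without the 3 arrays whose hybridization controls stood high 1 and 0; blocked and without those arrays 4 were higher and the median was 0.086. With the block and without cows 1, 2, 3 and 4 in turn, 1, 5, 0 and 1 were higher and 3, 2, 6 and 4 lower, and without cow 2 the median was 0.085. At week 3 against week 0, 1 was higher after quantile normalization, 1 higher and 2 lower with array weights, and 0 lower without the 3 arrays, with or without the block; with the block 0 were lower without cow 1, 2 or 4 and 1 was higher without cow 3. At week 3 against week 1, with 0 in each direction, the block gave 3 higher, the block without the 3 arrays 5 higher, and array weights 6 higher and 1 lower; with the block and without cows 1 to 4 in turn, 3, 1, 3 and 2 were higher, and 3 were lower without cow 2. The other alternatives (arrays centred, mean of probe sets, filter on SD) kept these counts within 1.5 times. Of all probe sets 44.0% were higher and 6.10% lower with array weights at week 1 against week 0, 11.7% and 3.26% at week 3 against week 0, and 7.67% and 26.9% at week 3 against week 1. With the block these shares were 4.39% and 3.22%, 3.93% and 2.19%, and 4.18% and 3.40%, and without the 3 arrays as well 4.18% and 5.72%, 2.92% and 2.47%, and 7.59% and 4.2%. With the block and without cows 1 to 4 in turn, 2.91% to 8.33% were higher and 2.14% to 5.11% lower at week 1 against week 0, 2.48% to 3.69% and 1.55% to 2.09% at week 3 against week 0, and 2.95% to 6.45% and 2.12% to 4.31% at week 3 against week 1. Without the 3 arrays and without the block, 12.7% were higher and 4.97% lower at week 1 against week 0, and 2.78% and 2.27% at week 3 against week 0. After quantile normalization 2.79% were higher at week 3 against week 0.

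Without the 3 arrays, PSMB8 minus PSMB5 was at 1.12 and PSMB9 minus PSMB6 at 0.35 at week 3 against week 0; this sets all 4 cows at week 3 against cows 3 and 4 at week 0, and with the block and without the arrays PSMB8 alone was at 0.19 and PSMB9 alone at -0.11. Leaving out arrays or cows, PSMB8 minus PSMB5 ran from -1.94 to -0.39 at week 1 against week 0, from -0.92 to 0.44 at week 3 against week 0 and from 0.17 to 1.67 at week 3 against week 1. PSMB9 minus PSMB6 ran from -0.56 to -0.11, -0.36 to 0.21 and 0.04 to 0.56, and PSMB10 minus PSMB7 from -0.17 to 0.078, -0.21 to 0.021 and -0.21 to 0.00013. Beyond this change of cows, the cause of these shifts was not tested.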
